A study of Mus musculus with 2343 samples.

Results

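Single medullary thymic epithelial cells of the MHC class II-high kind (mTEChi) were compared between reporter-positive cells of the Eed strain and wild-type (WT) cells on the 3 plates, SCGC1373, SCGC1379 and SCGC1380, on which both groups gave usable libraries. A cell was used if it had at least 50000 counts on genes and at least 1000 genes with a count. Of 777 wells, 54.57% passed. They held 53, 73 and 89 reporter-positive cells on the plates in the order above, or 53.88% of the reporter-positive wells, and 48, 51 and 110 WT cells, or 55.29% of the WT wells. The series holds 1505 single mTEChi wells in all, of which 833 passed the same rule, among 2343 samples of single cells, pools and other assays.

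Eed is a core subunit of Polycomb repressive complex PRC2, which places methyl groups on lysine 27 of histone H3 and helps keep developmental genes silent. It binds the finished mark and stimulates the catalytic subunits Ezh2 and Ezh1. Mature medullary epithelial cells carry much MHC class II and the regulators Aire and Fezf2, and express, each cell in its own mixture, genes otherwise restricted to organs such as liver, gut and skin, which exposes developing T cells to those self-antigens.

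The reporter-positive group, here called ZsGpos, came from mice with a floxed Eed gene, the ZsGreen reporter and beta5t-Cre, and was sorted as ZsGreen positive. The WT group carried floxed Eed and ZsGreen as well, with no Cre named, and was sorted as ZsGreen negative. The beta5t (Psmb11) promoter is known for its activity in the thymic epithelial lineage, and ZsGreen marks cells, or their precursors, in which Cre acted. ZsGreen-negative cells of the Cre-bearing strain (ZsGneg, with 86, 89 and 70 passing cells on the same plates) are given as a further level. The labels name no age and no animal for a cell, so each group counts as 1 sample, no test between the groups was run, and no p-value or standard error is given.

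Levels are in CPM, the counts of a gene scaled to the total gene counts of a group on a plate, and each fold was taken within a plate. Intervals are exact binomial intervals on shares of cells and cover the sampling of cells only, since each group counts as 1 sample. Reads were counted without molecular identifiers. The median cell had 309825 gene counts in ZsGpos and 280431 in WT, with 5634 and 5600 genes. The plate SCGC1379 medians were further apart, 527534 against 330060 counts. A gene was examined if its mean over the 6 plate levels was at least 5 CPM and at least 10% of the cells of the 2 groups had a read, which left 11359 genes. It was called if it differed at least 2-fold in 1 direction on all 3 plates, with sums under 3 counts set to 3.

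The groups also differed in the sex of the cells. Y-linked genes together stood at 172.67, 144.67 and 243.66 CPM in ZsGpos on plates SCGC1373, SCGC1379 and SCGC1380, and at 0.1910, 4.863 and 0.3639 CPM in WT. Xist, the RNA that silences 1 X chromosome in female cells, stood at 0.5497, 0.9773 and 1.897 CPM in ZsGpos and at 285.91, 365.97 and 355.88 CPM in WT. ZsGneg cells read as male on plates SCGC1373 and SCGC1380 and as female on SCGC1379, with 265.85 CPM of Xist there. Sex, the rows of the plate and the animal therefore cannot be told apart from the Eed genotype in these cells, and the bulk libraries, which hold both sexes in both groups, are given beside the calls. The share of reads outside genes was 14.56%, 8.907% and 13.45% in ZsGpos and 13.67%, 15.90% and 15.93% in WT, and its part in the results was not tested. On plate SCGC1380, 3 of the no-template wells held 51838 to 73567 gene counts, enough to pass the rule for cells. Without that plate 3.020% of the genes were at least 2-fold higher and 2.157% lower on both other plates. Leaving out any plate can only add calls, so these shares do not show what such reads did to the results. Their part was not tested.

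Against WT, 1.13% of the genes examined were called higher in ZsGpos, and 68 genes (0.599%) were called lower. With no limit on size, 1513 genes (13.3%) were higher and 1743 (15.3%) lower on all 3 plates. Of the called genes, 84.4% of the higher and 52 of the 68 lower (76.47%) had plate levels that did not overlap between the groups. Over all genes examined, 5.537% were higher and 6.004% lower without overlap. The call used the same plates and itself makes such a gap likely, so the gap is no further support. All 4 Y-linked genes examined were among those called higher, and Xist and Morc4 were the 2 X-linked genes called lower. The called genes were sparse: their median level was 14.82 CPM for the higher and 14.12 CPM for the lower genes, against 30.0 CPM over all genes examined. Without the highest cell of each group on each plate, 90 of the higher (70.31%) and 45 of the lower genes (66.18%) were still called. When the mean of each cell's log2(CPM + 1) replaced the sum of counts, 24 (18.75%) and 3 (4.412%) of them were.

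**Figure D1:**
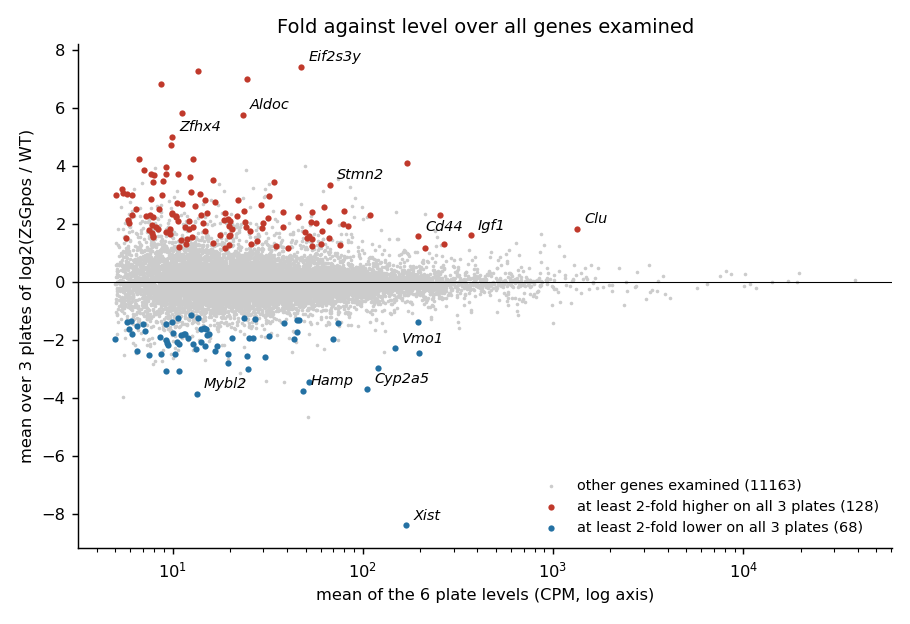
Mean over the 3 plates of the log2 fold of ZsGpos over WT (y axis) against the mean of the 6 plate levels in CPM (x axis, log scale) for each examined gene, with the genes called higher in red and the 68 called lower in blue. Most called genes lie at low levels, where the grey points also spread widest, and Clu and Igf1 lie at the high end of those called higher.

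Clu, Igf1 and Cd44 were among the genes called higher. Clu (chr14:65968483-65981548, GRCm38), which encodes the secreted chaperone clusterin, stood at 1628, 2618 and 2049 CPM in ZsGpos and at 607.22, 419.53 and 726.51 CPM in WT on plates SCGC1373, SCGC1379 and SCGC1380. The 2 groups did not overlap, and the folds were 2.681, 6.240 and 2.820. The ZsGneg cells, at 1413, 927.95 and 1688 CPM, lay above every WT plate too. In the median cell Clu stood at 1002 CPM in ZsGpos and at 196.24 CPM in WT.

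Igf1 (chr10:87858265-87937047), the insulin-like growth factor, stood at 458.03, 513.44 and 699.08 CPM in ZsGpos and at 148.33, 153.86 and 241.49 CPM in WT. Every ZsGpos plate exceeded every WT plate, by 3.088, 3.337 and 2.895-fold within plates. Its ZsGneg levels of 113.12, 115.25 and 57.89 CPM lay below WT on each plate, unlike those of Clu. The median ZsGpos cell had 182.04 CPM of Igf1 while the median WT cell had none, and the highest single cells were close, at 3779 and 2998 CPM.

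Cd44 (chr2:102811141-102901669), a receptor for hyaluronan, stood at 366.71, 240.80 and 270.12 CPM in ZsGpos and 100.33, 78.59 and 109.63 CPM in WT. The groups were again apart, and ZsGneg, at 84.20, 114.96 and 110.56 CPM, was close to WT. Rarres1, a membrane protein first found as retinoid-responsive, stood at 333.65, 488.98 and 422.25 CPM against 63.73, 48.25 and 177.67 CPM. Cxcl13, a chemokine that attracts B cells, stood at 480.73, 170.27 and 220.63 CPM against 54.88, 0.6079 and 103.01 CPM, so that its folds of 8.760, 280.08 and 2.142 spread far more than those of Igf1. Ifitm1, an interferon-induced membrane protein, stood at 203.46, 123.03 and 208.11 CPM against 67.93, 33.99 and 17.90 CPM, with no overlap. Hspb1, a small heat shock protein, was also called, at 510.96, 207.49 and 429.58 CPM against 212.70, 90.53 and 153.06 CPM, but its lowest ZsGpos plate fell just under its highest WT plate.

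Genes at or near the floor in WT gave the steepest differences. Zfhx4 (chr3:5218218-5415861), a zinc finger homeobox gene, stood at 22.54, 7.438 and 27.92 CPM in ZsGpos and at 0, 0.4974 and 1.422 CPM in WT. On plate SCGC1373 the WT sum lay under the floor of 3 counts per plate sum, so that no exact fold is given there, and on the other plates it was 14.95 and 19.63-fold higher. Its ZsGneg levels, 0.08042, 0 and 0.8096 CPM, were as low as those of WT. Stmn2 (chr3:8509527-8561604), a tubulin-binding protein known from neurons, stood at 117.39, 92.68 and 154.60 CPM against 20.05, 8.069 and 9.395 CPM. Its ZsGneg levels of 73.99, 50.96 and 17.25 CPM lay between the other 2 groups on each plate.

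Aldoc, the brain form of the glycolytic enzyme aldolase, stood at 46.80, 45.28 and 44.51 CPM in ZsGpos and at 0.1910, 1.492 and 1.985 CPM in WT. Its ZsGpos plates were almost level, while WT stayed below 2 CPM throughout. Ahnak2, a large scaffold protein, stood at 97.45, 49.38 and 41.11 CPM against 7.003, 3.316 and 6.616 CPM, with ZsGneg at 8.485, 4.271 and 7.185 CPM. Moxd1, a copper monooxygenase, stood at 28.58, 11.37 and 24.30 CPM against 2.547, 0 and 0.06616 CPM, the 0 being an absence of reads. Pla2g7, the platelet-activating factor acetylhydrolase, differed by 6.410, 6.853 and 7.102-fold, and the 3 plates were close to one another. Ccdc3, a secreted protein, was 12.28, 5.602 and 8.253-fold higher, and Rxrg, a retinoid X receptor, 6.696, 96.52 and 6.076-fold. In bulk, each gene of this paragraph overlapped between the groups. Ahnak2 lay below WT within each sex there, with means of 23.28 CPM in ZsGpos and 33.56 CPM in WT. The bulk mean of Pla2g7 was lower in ZsGpos too, at 12.45 against 17.28 CPM, while those of Aldoc, Moxd1, Ccdc3 and Rxrg were higher.

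Of 50 developmental transcription factors listed, many of them classical Polycomb targets, 15 were abundant enough to be examined. Isl1 and Msx1 were called higher and none was called lower, and in 1 direction 5 (33.33%) were higher and 2 (13.3%) lower, beside 13.3% and 15.3% of all genes. Their median log2 fold was 0.15, against -0.02 over all genes. The promoters of these 2 genes are shown first, because CG-dense promoters are where PRC2 is known to act in mammals, together with those of 2 liver genes called lower, Hamp and Cyp2a5. Each line gives the 250 bases before the RefSeq transcription start (GRCm38.p6), 5′ to 3′ on the strand of the gene, with every CG in capitals. The intervals are chr13:116309689-116309938 (minus strand) for Isl1, chr5:37824586-37824835 (minus) for Msx1, chr7:30944030-30944279 (minus) for Hamp and chr7:26835089-26835338 (plus) for Cyp2a5.
Isl1: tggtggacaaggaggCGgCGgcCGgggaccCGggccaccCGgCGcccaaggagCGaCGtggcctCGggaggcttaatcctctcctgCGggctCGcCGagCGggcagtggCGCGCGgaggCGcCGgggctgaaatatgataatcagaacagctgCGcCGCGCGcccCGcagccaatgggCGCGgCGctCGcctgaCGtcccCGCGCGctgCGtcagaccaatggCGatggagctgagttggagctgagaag
Msx1: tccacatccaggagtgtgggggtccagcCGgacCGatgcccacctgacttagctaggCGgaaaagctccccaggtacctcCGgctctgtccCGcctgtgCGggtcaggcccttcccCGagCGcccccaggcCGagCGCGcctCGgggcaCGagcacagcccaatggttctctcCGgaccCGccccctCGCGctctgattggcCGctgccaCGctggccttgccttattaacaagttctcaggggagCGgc
Hamp: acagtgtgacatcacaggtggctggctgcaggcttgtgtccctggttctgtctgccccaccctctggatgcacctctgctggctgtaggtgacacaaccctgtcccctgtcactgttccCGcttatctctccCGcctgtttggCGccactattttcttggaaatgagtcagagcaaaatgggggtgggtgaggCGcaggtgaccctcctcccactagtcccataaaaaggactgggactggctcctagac
Cyp2a5: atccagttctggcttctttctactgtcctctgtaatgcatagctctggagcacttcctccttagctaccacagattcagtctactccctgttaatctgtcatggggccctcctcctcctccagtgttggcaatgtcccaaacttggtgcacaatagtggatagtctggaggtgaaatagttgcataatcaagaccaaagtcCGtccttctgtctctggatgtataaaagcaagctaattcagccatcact

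The Isl1 window holds 33 CG and the Msx1 window 20, against 4 for Hamp and 1 for Cyp2a5. Of 27025 mouse promoters of the same length, 10328 (38.22%) hold at least 10 CG. These windows do not stand for the called genes. Of the genes examined that have a promoter there, 75.10% hold at least 10 CG, as do 61.29% of those called higher and 49.06% of those called lower. A comparison between these sets was void, because the table holds only 74.56% of the genes examined, 72.66% of those called higher and 77.94% of those called lower. The motif searched was CG alone, which reads the same on both strands, and its count describes these letters only.

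Isl1, a LIM homeodomain factor of motor neurons, heart and pancreatic islets, stood at 39.26, 63.96 and 45.39 CPM in ZsGpos and at 17.44, 21.28 and 22.36 CPM in WT. Every ZsGpos plate lay above every WT plate, and the smallest fold, 2.030 on plate SCGC1380, was barely past the limit. Msx1, a homeobox gene of craniofacial and limb development, stood at 15.86, 12.81 and 14.69 CPM against 3.056, 1.769 and 2.911 CPM. The 2 groups were apart by 5.191, 7.245 and 5.046-fold, and ZsGneg was low on plates SCGC1373 and SCGC1380 and at 16.63 CPM on plate SCGC1379. Gata3, Foxa1 and Foxc1 were the other members higher on all 3 plates, and Cdx1 and Sox9 were lower. Cdx1, an intestinal homeobox factor, stood at 110.17, 188.62 and 179.70 CPM against 179.15, 465.01 and 306.72 CPM.

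None of the 39 HOX genes, the body-axis regulators that PRC2 is best known to silence, was abundant enough to be examined. Summed over the 39 genes, they stood at 84.81, 64.66 and 63.52 CPM in ZsGpos and at 12.29, 47.81 and 52.73 CPM in WT. The sum was higher in ZsGpos on each plate and below 1.5-fold on 2 of them. Hoxa9 stood at 8.559, 8.443 and 7.102 CPM against 0, 3.869 and 1.720 CPM, and overlapped in bulk. Hoxb13 stood at 4.397, 1.357 and 10.94 CPM against 0, 14.76 and 30.27 CPM, so that it was lower in ZsGpos on plates SCGC1379 and SCGC1380, and all 4 bulk ZsGpos units lay below the 3 WT units.

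**Figure D2:**
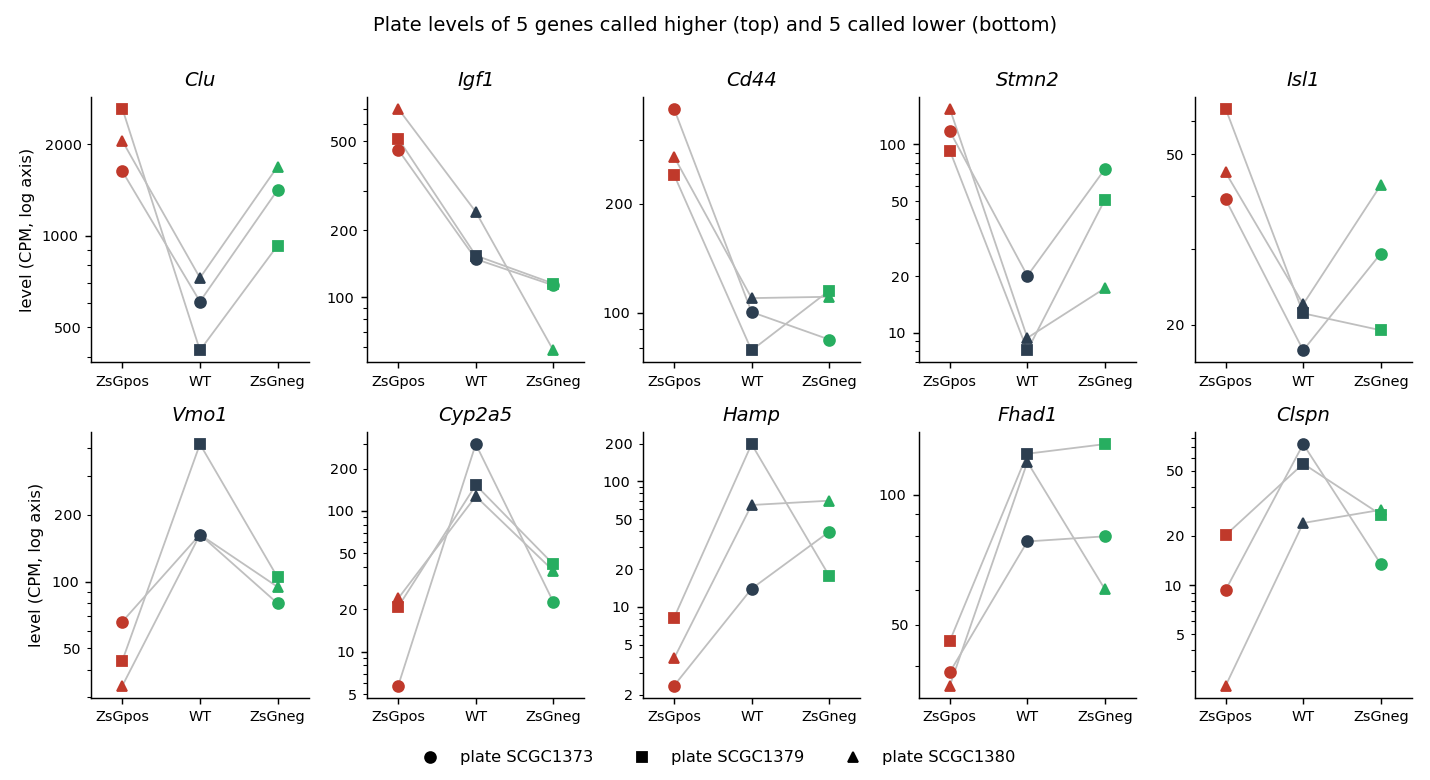
Level (CPM, log axis) on each plate of 5 genes called higher and 5 called lower, with ZsGpos, WT and ZsGneg along the x axis and a grey line joining the groups of a plate. Each ZsGpos point lies on 1 side of the 3 WT points, and ZsGneg lies near WT for Cd44 and near ZsGpos for Cyp2a5.

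Several genes called lower are known from liver or gut, and they are named one by one, since the list of tissue-restricted antigens as a whole, given after them, lay near the background. Cyp2a5, a liver cytochrome P450, stood at 5.732, 20.85 and 23.91 CPM in ZsGpos and at 298.64, 152.87 and 127.13 CPM in WT. Hamp, the iron hormone hepcidin made by the liver, stood at 2.356, 8.171 and 3.882 CPM against 13.94, 197.80 and 64.77 CPM. Neither gene overlapped between the groups. Both levels rested on few cells: 1 WT cell held 37.89% of the Cyp2a5 counts and 1 held 41.33% of the Hamp counts. After thinning each cell to 50000 counts, Hamp was read in 17 ZsGpos cells (7.907%, exact binomial 95% interval 4.673 to 12.36%) and in 42 WT cells (20.10%, 14.88 to 26.18%).

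Lypd8, a surface protein of colon epithelium, stood at 12.09, 23.35 and 172.73 CPM in ZsGpos and at 67.29, 153.03 and 760.94 CPM in WT. It was lower within each plate, but plate SCGC1380 was high in both groups, so the groups overlapped. Vil1, the brush-border protein villin, stood at 2.905, 7.683 and 4.808 CPM against 46.60, 24.98 and 30.96 CPM. Muc13, a gut mucin, stood at 2.356, 5.619 and 6.263 CPM against 7.640, 34.04 and 44.43 CPM. Both of these were apart on all plates. The serpin Serpina3j was 10.36, 21.67 and 5.713-fold lower and the channel-regulator family member Clca3b was 3.924, 6.950 and 7.006-fold lower. In bulk, every ZsGpos unit lay below every WT unit for Lypd8, Muc13 and Clca3b. Vil1 overlapped but lay below WT within each sex. Serpina3j overlapped without 1 direction in both sexes, with 1 ZsGpos unit at 63.27 CPM, above the highest WT unit at 53.61 CPM. Muc13 was the only one of 19 examined genes on the list of tissue-restricted antigens to be called. In that list 2 (10.5%) were higher and 3 (15.8%) lower in 1 direction, beside 13.3% and 15.3% of all genes, with a median log2 fold of -0.10.

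Vmo1 (chr11:70513516-70514616), named for the outer layer of the egg's vitelline membrane, was the most widely read of the genes called lower. Its levels were 65.96, 43.98 and 33.83 CPM in ZsGpos and 162.98, 417.54 and 162.99 CPM in WT. It was apart between the groups, at 2.471, 9.494 and 4.818-fold lower, with ZsGneg between them at 79.70, 104.58 and 94.62 CPM. Fhad1, which encodes a forkhead-associated domain protein, stood at 38.79, 45.82 and 36.08 CPM against 77.86, 124.29 and 118.92 CPM. Fcgr3, a low-affinity Fc receptor, stood at 2.827, 1.140 and 3.308 CPM against 27.69, 12.66 and 16.94 CPM. Ctcfl, the testis paralog of CTCF, was 4.079, 3.970 and 3.251-fold lower, a difference of similar size on each plate. In bulk, Fcgr3 overlapped between the groups, while every ZsGpos unit lay below every WT unit for Vmo1, Fhad1 and Ctcfl.

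Cell cycle genes formed another group on the lower side in the single cells. Of 34 examined, 10 (29.4%) were lower on all 3 plates, beside 15.3% of all genes, and 2 (Ccnd2 and Ccnd3, D-type cyclins) were higher. The list's median log2 fold was -0.83, at -0.62, -0.05 and -1.24 on the 3 plates. Ccne2, a cyclin of entry into DNA replication, was the only member called, at 4.005, 3.339 and 2.294 CPM in ZsGpos and 26.93, 13.87 and 5.260 CPM in WT. Outside the list, Mybl2, a transcription factor of dividing cells, stood at 0.2356, 3.040 and 5.425 CPM against 32.91, 14.15 and 24.78 CPM. Clspn, a replication checkpoint adaptor, was 7.808, 2.734 and 9.900-fold lower. In bulk, Ccne2, Mybl2 and Clspn overlapped between the groups and their means were not lower in ZsGpos. These means were 10.51, 7.391 and 18.22 CPM in ZsGpos and 8.747, 3.059 and 17.82 CPM in WT.

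The share of cycling cells was lower in ZsGpos on plates SCGC1373 and SCGC1380 and slightly higher on plate SCGC1379. Ccne2, Mybl2 and Clspn were lower on that plate too, but the call itself asks for this on every plate. The median log2 fold of the cell cycle list there was -0.05. Cells with at least 50 CPM of Mki67 and Top2a together, proteins of dividing cells, made up 20.75%, 36.99% and 12.36% of ZsGpos and 37.50%, 35.29% and 29.09% of WT on plates SCGC1373, SCGC1379 and SCGC1380. Over the plates they were 49 ZsGpos cells (22.79%) and 68 WT cells (32.54%). Mki67 itself had no single direction, at 53.24, 134.27 and 11.20 CPM against 109.25, 127.44 and 132.55 CPM. Among cells below that level, 82 of the higher (64.06%) and 34 of the lower genes (50%) were still called, and 6 cell cycle genes rather than 10 were lower on all plates. In bulk, Mki67 lay above WT within each sex, with means of 223.93 CPM in ZsGpos and 162.61 CPM in WT, and Top2a overlapped.

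Both groups carried the markers of the labelled cell type. Cd74, the MHC class II invariant chain, stood at 19835, 15799 and 21946 CPM in ZsGpos and at 23024, 14519 and 19722 CPM in WT. H2-Aa, an MHC class II chain, stood at 9289, 12014 and 11561 CPM against 11586, 13045 and 12559 CPM. In bulk, every ZsGpos unit lay below every WT unit for both genes. The bulk means were 10729 against 17956 CPM for Cd74 and 3522 against 6268 CPM for H2-Aa. Among the single cells Aire had no single direction, at 985.72, 944.10 and 719.37 CPM against 655.28, 863.92 and 1048 CPM. It was read in 79.07% of ZsGpos and 90.43% of WT cells. Within the cells that had an Aire read, 83 of the higher (64.84%) and 47 of the lower genes (69.12%) were still called. The mean log2 fold there was 1.75 for Igf1, 1.85 for Clu, 3.16 for Stmn2 and -3.11 for Cyp2a5.

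Among genes of mTEC maturation none was called. Of 16 examined, 6 (37.5%) were lower on all 3 plates, beside 15.3% of all genes, and 1, the protease gene Ctsz, was higher, with a median log2 fold of -0.10. The 6 were Fezf2, Cd80, the NF-κB subunits Relb and Nfkb2, Traf6 and Chd4. Fezf2, which drives Aire-independent antigen genes, stood at 338.91, 458.76 and 400.60 CPM in ZsGpos and at 467.60, 651.42 and 488.79 CPM in WT. The costimulator Cd80 stood at 23.24, 15.12 and 22.58 CPM against 31.83, 24.21 and 48.07 CPM. Both were apart between the groups, by 1.220 to 1.420-fold for Fezf2 and 1.369 to 2.128-fold for Cd80. In bulk, every ZsGpos unit lay below every WT unit for Fezf2, and Cd80 overlapped.

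Marker genes of other cells were read in both groups. Ptprc, the pan-leukocyte gene, was read in 24 ZsGpos cells (11.16%) and 12 WT cells (5.742%), and without those cells 81.25% of the higher and 51 of the 68 lower genes (75%) were still called. The 18 thymocyte genes summed to 220.24 to 489.91 CPM in ZsGpos and 71.24 to 524.15 CPM in WT. The 15 myeloid and dendritic genes summed to 1749.8 to 2227 CPM against 1155 to 1581 CPM, most of it from Lyz2, a lysozyme, at 1915, 2155 and 1660.5 CPM against 1048, 1343 and 1407 CPM. In single cells Lyz2 was thus above Aire, and in bulk it overlapped between the groups. Of the 4 members examined the other 3 (Cd68, Fcer1g and Mrc1) were lower on all plates, with a median log2 fold of -0.99 over the 4. The 9 B cell genes summed to 395.92 to 709.68 CPM against 355.81 to 656.29 CPM, and the 12 fibroblast genes to 544.39 to 902.49 CPM against 279.81 to 596.52 CPM. Endothelial genes summed to 53.29 to 133.52 CPM against 32.40 to 112.08 CPM, and erythroid genes to 33.69 to 77.42 CPM against 7.321 to 69.69 CPM. The defining markers at 0 were Itgax in ZsGpos, and Kdr, Klf1 and Slc4a1 in WT. No gene of these 6 lists was called, and their part in the other results was not tested.

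Among PRC2 genes, Eed (chr7:89954654-89980976) stood at 11.23, 36.43 and 14.60 CPM in ZsGpos and at 40.30, 45.71 and 29.81 CPM in WT. It was lower within each plate, by 3.589, 1.255 and 2.041-fold, and so missed the call on plate SCGC1379. The plate levels of the groups overlapped. Counts over the whole gene do not separate the floxed exons from the rest, so this is no measure of deletion. Ezh2, the catalytic subunit, stood at 38.56, 62.79 and 40.40 CPM against 66.21, 80.63 and 71.45 CPM, and did not overlap. Of 10 PRC2 genes examined, 4 (40%) were lower on all 3 plates (Eed, Ezh2, Rbbp7 and Mtf2), beside 15.3% of all genes, and 1, Ezh1, was higher. Rbbp7, a histone-binding subunit, is X-linked, as is Kdm6a, the demethylase for the same mark, which stood at 39.03, 26.17 and 29.64 CPM against 63.03, 55.05 and 95.83 CPM. Of 17 PRC1 genes, the complex that reads the mark, 2 (11.8%) were higher and 3 (17.6%) lower, near the background.

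In the list of Wnt, Bmp and Notch pathways, 9 of 27 (33.3%) were higher on all 3 plates and 0 lower, beside 13.3% and 15.3% of all genes, with a median log2 fold of 0.46. The medians on the plates were -0.10, 0.75 and 0.58. Hey1 (chr3:8663359-8667038), a repressor switched on by Notch, was the member called, at 67.22, 62.66 and 61.66 CPM in ZsGpos and at 12.99, 7.406 and 17.20 CPM in WT. It was apart between the groups, and ZsGneg, at 15.28, 16.26 and 23.28 CPM, was near WT. In bulk Hey1 overlapped, with means of 24.55 CPM in ZsGpos and 5.613 CPM in WT. The female ZsGpos unit, at 8.746 CPM, lay below a female WT unit at 11.11 CPM. Hes1, another Notch target, was higher on each plate, by 1.810, 1.286 and 1.786-fold. The other members were Wnt4, Fzd1, Id3, Smad7, Notch2, Notch3 and Jag1.

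The MHC class I and immunoproteasome genes had the largest share of members in 1 direction among the lists with at least 10 examined genes. Of 17 examined, 11 (64.7%, beside 13.3% of all genes) were higher on all 3 plates and 0 were lower. None of them was called, and the median log2 fold was 0.27. B2m, the light chain of class I molecules, stood at 28325, 16394 and 21176 CPM in ZsGpos and at 19282, 14061 and 18895 CPM in WT, which overlapped. Psmb8, an immunoproteasome subunit, stood at 619.71, 882.37 and 649.19 CPM against 350.40, 512.93 and 436.79 CPM. Psmb9, its partner, stood at 213.43, 296.31 and 255.17 CPM against 156.42, 163.48 and 152.73 CPM, and these 2 did not overlap. H2-K1 and H2-D1 were 1.010 and 1.003-fold apart on plate SCGC1380. Across the alternatives the count of 11 ranged from 3 to 13. In bulk, B2m lay slightly below WT within each sex, with means of 13138 CPM in ZsGpos and 13536 CPM in WT. H2-D1 and Psmb8 overlapped there without 1 direction in both sexes, and H2-K1 lay above WT within each sex. For Psmb9 every ZsGpos unit lay above every WT unit. In the interferon response list 7 of 27 (25.9%) were higher and 0 lower in single cells, against the same background, with Ifitm1 called. The MHC class II list was even in single cells, 2 higher and 2 lower of 14, while its members Cd74 and H2-Aa were lower in bulk.

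Immediate early genes, which cells switch on within minutes of a stimulus, depended on the plate in the single cells. Of 23 examined, 7 (30.4%) were higher and 1 lower on all plates, beside 13.3% and 15.3% of all genes, but the median log2 fold was 1.48 on plate SCGC1373 and 0.12 and 0.07 on plates SCGC1379 and SCGC1380. Fos stood at 989.17, 121.38 and 87.51 CPM in ZsGpos and at 27.82, 124.24 and 121.31 CPM in WT. Its 35.56-fold difference was thus seen on plate SCGC1373 alone, as was that of Egr1, at 578.25, 48.21 and 100.61 CPM against 20.56, 103.13 and 61.23 CPM. Dusp1, a phosphatase of the same response, was called, at 134.12, 64.91 and 71.59 CPM against 9.931, 30.67 and 29.87 CPM. Cyr61, a matrix protein of the same list, was called at 100.75, 176.81 and 120.51 CPM against 36.03, 46.92 and 22.43 CPM. In bulk, all 4 ZsGpos units lay above the 3 WT units for Fos, Egr1, Dusp1 and Cyr61. Fos stood there at 447.85 to 927.64 CPM against 24.02 to 48.98 CPM, and Egr1 at 244.14 to 486.54 CPM against 44.53 to 70.46 CPM.

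In the BCL2 family 5 of 14 genes (35.7%) were higher and 2 (14.3%) lower, beside 13.3% and 15.3% of all genes, and Bcl2a1b, a protector from apoptosis, was called at 278.76, 294.25 and 311.58 CPM against 103.07, 140.98 and 149.62 CPM. Near-identical copies of it share reads, as do other gene families named here, such as Cyp2a and class I heavy chains, and the split between copies is uncertain. Among p53 targets 5 of 20 (25%) were higher and 1 lower, beside the same shares of all genes, with Phlda3, a brake on Akt, called at 2.217, 10.21 and 3.478-fold. The imprinted zinc finger gene Peg3 was called at 14.53, 15.09 and 41.02 CPM against 5.921, 6.577 and 5.657 CPM, in a list with 3 of 12 higher (25%) and 3 lower (25%), again beside 13.3% and 15.3%.

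**Figure D3:**
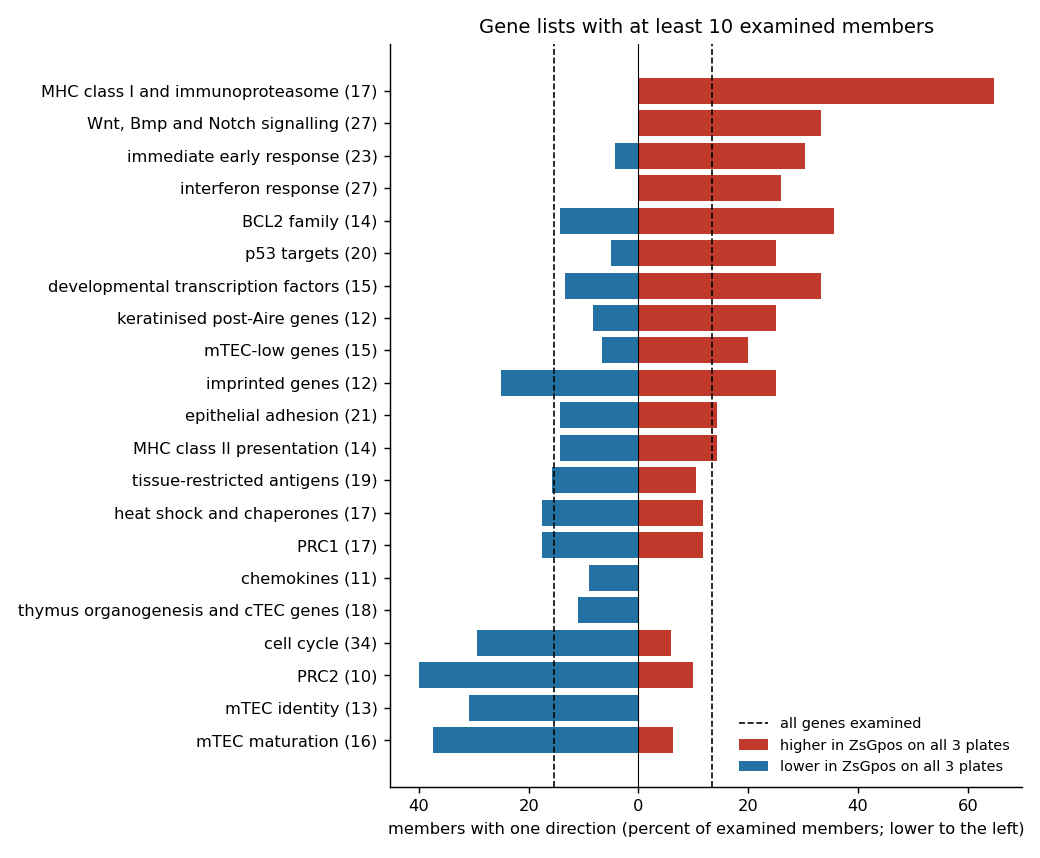
Percent of the examined genes of each list that were higher (right) or lower (left) in ZsGpos on all 3 plates, any size, with the percent over all 11359 genes as dashed lines. MHC class I genes reach 64.7% on the higher side and 0 on the lower, and cell cycle, PRC2 and mTEC maturation genes pass the background on the lower side.

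Genes of immature (mTEC-low) and keratinised cells showed how 1 cell could set a level. Krt5 (chr15:101707069-101712905), a basal keratin, stood at 800.87, 993.78 and 1111 CPM in ZsGpos and at 2011, 79.42 and 178.53 CPM in WT. A single WT cell held 52.83% of its WT counts, and the direction on plate SCGC1373 was opposite to the other 2. By detected share Krt5 was read in 67.44% of ZsGpos and 42.11% of WT cells. Ly6d, a surface protein of keratinised cells, stood at 827.02, 975.43 and 859.33 CPM against 657.07, 242.90 and 250.28 CPM, higher on all 3 plates but 1.259-fold on plate SCGC1373. Of 15 mTEC-low genes 3 (Ly6a, Itgb4 and Plet1) were higher on all plates and Cldn4 was lower. Of 12 keratinised genes 3 were higher and 1 was lower. These are 20% and 25% higher, beside 13.3% of all genes. The median log2 fold of the mTEC-low list was 0.96, at -0.22, 1.40 and 1.20 on the 3 plates, and that of the keratinised list 0.22. For Krt5 and Ly6d, whose levels are given here, every bulk ZsGpos unit lay above every WT unit.

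The share of cells with a read is less exposed to 1 high cell. With each cell thinned to 50000 counts, 1.00% of the genes examined were read in at least 10 percentage points more ZsGpos than WT cells on all 3 plates, and 99 genes (0.872%) in at least 10 points fewer. Of these, 34 and 6 were also called by level. Igf1 was read in 71.16% of ZsGpos cells (64.61 to 77.12%) and in 37.32% of WT cells (30.75 to 44.26%). Cd44 was read in 71.16% and 43.54%, and Clu in 93.02% and 74.16%. These intervals cover the sampling of cells within 1 sample a group and are no test between the groups. Stmn2 was read in 36.28% (29.85 to 43.09%) and 11.96% (7.893 to 17.15%). Vmo1 went the other way, read in 26.98% (21.17 to 33.43%) of ZsGpos and 55.98% (48.97 to 62.82%) of WT cells. The mesothelin gene Msln, a surface protein of mesothelium, was read in 28.84% and 54.55%, Cdx1 in 50.23% and 76.08%, and the X-linked Kdm6a in 29.77% and 64.59%. Among further gains, Ece1, the enzyme that matures endothelin, was read in 49.77% and 19.62%. Mndal, a gene of the interferon-inducible Ifi200 family, was read in 59.07% of ZsGpos, 18.18% of WT and 44.08% of ZsGneg cells. Fxyd3, a regulator of the sodium pump, was read in 68.84% and 34.93%. Without thinning the shares were 76.28% and 44.02% for Igf1, 42.79% and 16.27% for Stmn2 and 31.16% and 67.46% for Vmo1. Eed was read in 28.84% of ZsGpos and 41.15% of WT cells.

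**Figure D4:**
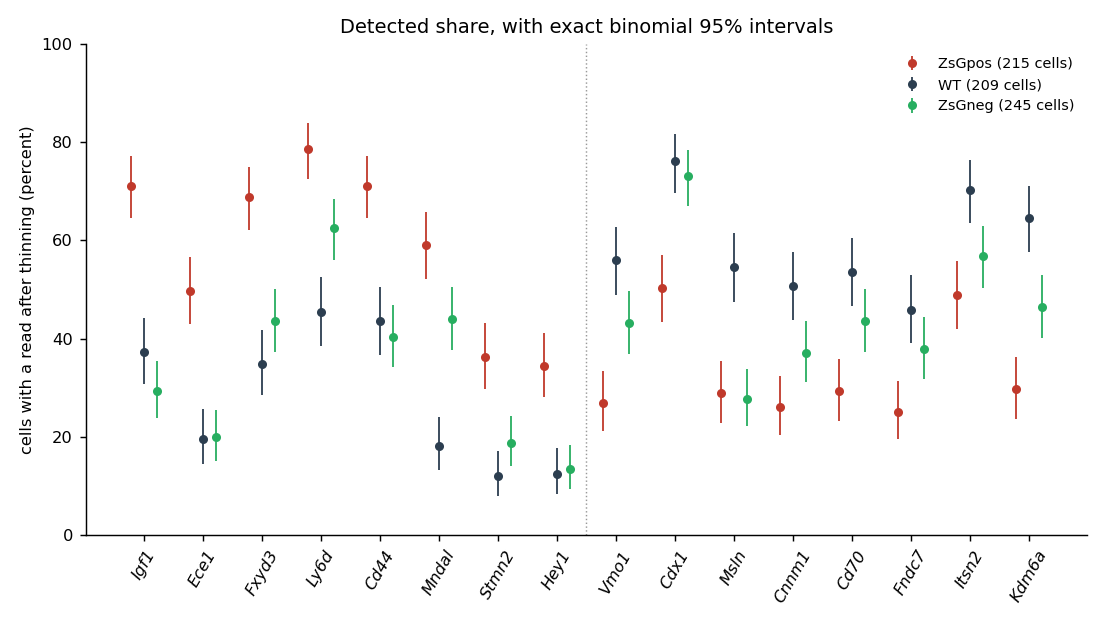
Percent of cells with a read, after thinning to 50000 counts, in ZsGpos, WT and ZsGneg. There are 8 genes drawn as gains (left of the dotted line) and 8 as losses (right). Xist and Y-linked genes were left out of both. Bars are exact binomial 95% intervals over all cells of a group, which cover the sampling of cells only. All genes but Cd44 and Hey1, which stand in place of Ifitm1 and Sulf2, were chosen for the largest difference in share. That difference spans 71.16% against 37.32% for Igf1 and 26.98% against 55.98% for Vmo1.

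Bulk libraries of the same sorted populations, from pools of about 1000 cells, were not used to call genes and include both sexes in each group. They comprised 4 ZsGpos units, 3 reading as male and 1 as female, and 3 WT units, 2 female and 1 male. A difference in bulk can come from fewer cells of a kind or from less RNA per cell, which cannot be told apart. Over all examined genes, the 4 ZsGpos units lay above the 3 WT units for 805 genes (7.09%) and below for 992 (8.73%). ZsGpos lay above WT within each sex for 1396 genes (12.3%) and below for 1665 (14.7%).

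The genes called in single cells were read in bulk against those shares, with the X and Y chromosomes left out. Of the remaining genes called higher, 43 (34.7%) lay above WT within each sex in bulk and 4 (3.23%) below, where the shares among the 11034 examined genes not annotated to X or Y were 12.4% and 14.7%. These sets keep genes without a chromosome in the annotation, 6 of those called higher and 6 of those called lower. Of 66 called lower, 21 (31.8%) lay below and 0 above. Of those with a higher detected share, 60 (55.6%) lay above and 3 below, and of 92 with a lower share 36 (39.1%) lay below and 3 above. Conversely the 43 genes were 3.15% of all such genes above within each sex in bulk, and the 21 were 1.30% of those below.

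In bulk, Igf1 stood at 1020.3, 893.24, 809.78 and 904.07 CPM in ZsGpos and at 226.15, 314.46 and 304.75 CPM in WT. Zfhx4 stood at 35.09, 43.78, 25.80 and 52.67 CPM against 1.818, 0.3160 and 0.02307 CPM, and Stmn2 at 120.83, 142.44, 133.70 and 115.79 CPM against 9.035, 9.664 and 9.575 CPM. The female ZsGpos unit, the fourth, lay among the others for Igf1, above them for Zfhx4 and below them for Stmn2, and above every WT unit for each of these 3 genes. Clu stood at 850.10, 827.73, 875.00 and 710.33 CPM against 369.77, 329.91 and 311.60 CPM. Vmo1 stood at 50.65, 5.785, 77.31 and 85.65 CPM against 197.66, 329.47 and 330.22 CPM, and Lypd8 at 11.88, 32.13, 67.03 and 13.88 CPM against 173.11, 179.03 and 257.36 CPM. Krt5, split by plate in single cells, stood at 971.85, 802.55, 772.70 and 677.81 CPM against 133.05, 105.93 and 130.05 CPM. Eed overlapped in bulk, at 58.39, 19.78, 85.80 and 17.11 CPM against 51.51, 29.91 and 46.40 CPM. So did Cxcl13, called higher in single cells, at 522.44, 473.98, 113.31 and 202.58 CPM against 291.10, 243.49 and 275.29 CPM.

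**Figure D5:**
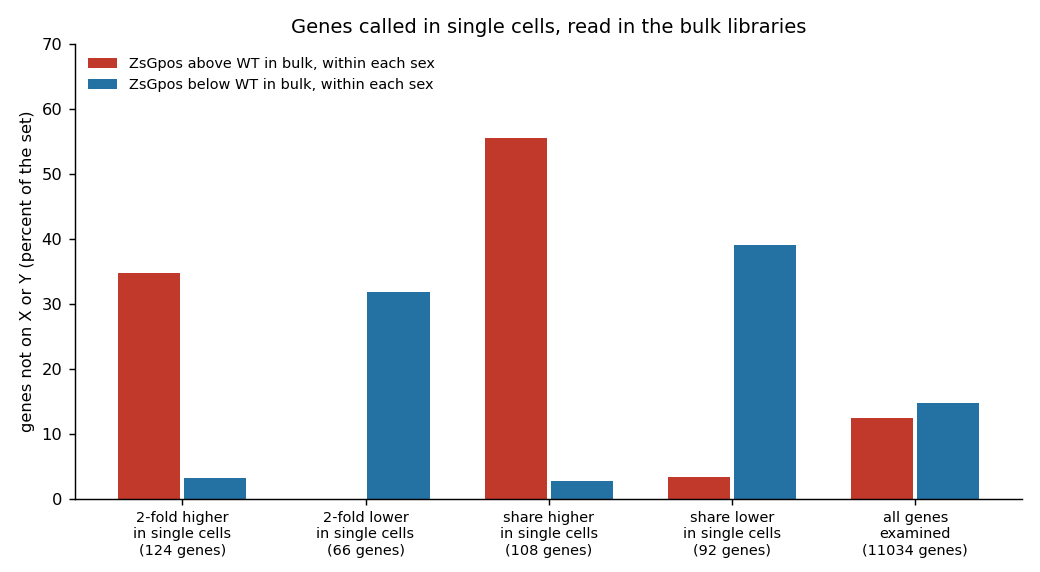
Percent of the genes not annotated to X or Y of each single-cell set, and of all examined genes, that lie above or below WT within each sex in the bulk libraries. The genes called higher reach 34.7% above and 3.23% below, those called lower 0 above and 31.8% below, and all examined genes 12.4% and 14.7%.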

How the data were processed

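Single mTEChi cells were sorted into plates and sequenced as polyadenylated RNA, and the authors deposited whole-number read counts per gene for every well in 1 table. Per the submitters' processing notes, which give no role or order, the tools were HISAT 0.1.6, BWA 0.5.9, HTSeq, MACS2, Trimmomatic and FastQC, and the build named was mm10. Whether counting used the strand is not stated, so reads of overlapping or antisense genes cannot be told apart. The 92 spike-in rows and 5 summary rows stayed out of all totals, and 45317 gene rows remained.

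Counts were summed over the passing cells of a group on a plate and divided by their total (Python 3.11.15, numpy 2.4.6, scipy 1.17.1). Of 353 wells left out, 3 failed on genes alone, and their median was 327 counts. The lowest passing cell had 50093 gene counts, and the highest left out for its counts 49493. The passing cells were 215 of 399 ZsGpos wells and 209 of 378 WT wells, 424 in all, and 245 ZsGneg cells passed on the same plates. No passing cells had identical counts. Each well was sorted as 1 cell and no doublet caller was run. Cells were thinned with seed 1. The TMM and RLE scalings of the alternatives came from edgeR 4.0.16 in R 4.3.3, which ran no test. WT bulk libraries were summed into 3 units by the first number of their labels. The procedure was tested on simulated data. Levels, folds and shares of cells are given to 4 significant digits, or 2 decimals between 100 and 1000. Shares of genes stand in place of these counts: 128 genes were called higher, 124 of them off X and Y and 108 without overlap of plate levels, and 114 had a higher detected share, 108 of them off X and Y.

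Besides a fixed set, the 12 called genes per direction with the largest smallest-plate fold were eligible to be named. Xist, Y-linked, mitochondrial and ribosomal protein genes and predicted gene models were left out of these 12. Up to 4 called members of a list were also eligible, or the 2 most abundant members of a list with none. Clu, Igf1, Rarres1, Cxcl13, Hspb1, Vmo1, Fhad1, Fxyd3, Ece1, Mndal, Msln, Kdm6a, Clspn, Ly6d, Psmb8, Psmb9, Ptprc and the genes of the last part were chosen after their values were seen. The members and gene lists were chosen with earlier results of these data known. Gene positions are from RefSeq, GRCm38. Results on 2 genes are not reported here.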

Additional observations from a re-analysis of the deposited data

Results flagged for a closer look

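Wells without a cell are not part of any comparison. Of 14 no-template wells, 3 held reads far above the rest, all on plate SCGC1380: well A1 had 51838 gene counts, A2 73567 and A3 67466. The highest of the other 11 held 0.7292% of the counts of the lowest of these 3. Egr1 was flagged in the bulk libraries, where the WT units stood at 70.46, 48.06 and 44.53 CPM. Of 4 ZsGpos units, 1 stood at 244.14 CPM and the others at 468.82, 471.02 and 486.54 CPM, which left a gap large for a group of 4. Chance flags about 1 in 20 such groups, and 32 genes were looked at.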

How the results depend on the processing

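The share of genes called depended most on which genes and plates were asked. Percents here are of the genes tested, 11359 unless another number is given, and stability was judged on the counts of genes behind them. The main values were 1.127% higher and 0.5986% lower at 2-fold, 13.32% and 15.34% of any size, and 1.004% and 0.8716% by detected share. With no gene filter (29069 genes) they became 1.913%, 1.318%, 9.075% and 9.299%, which are more genes in number, and with a filter at 20 CPM and 25% of cells (6923 genes) 0.5056%, 0.1444%, 12.44% and 16.02%. The mean of each cell's log2(CPM + 1) gave 0.4842% and 0.2993%. A fold of 1.5 gave 2.606% and 2.122%, and a fold of 3 gave 0.3609% and 0.1673%. With plate SCGC1381 added, where only 2 ZsGpos cells passed, the values were 0.4754%, 0.2817% and, higher of any size, 6.400%. Leaving out 1 plate, which asks for 1 direction on fewer plates, gave 2.835 to 3.759% and 2.130 to 2.263% at 2-fold, 22.13 to 27.42% and 26.56 to 28.18% of any size, and 1.954 to 3.072% and 2.254 to 3.786% by share. Asking for at least 3 reads left 0.5722% with a higher share. Further settings were chosen after seeing the data: plate levels that also do not overlap left 5.537% and 6.004% of any size, cells under 50 CPM of Mki67 and Top2a gave 1.919% with a higher share, and cells with an Aire read gave 0.5194% with a lower one. The other 62 recomputed counts stayed within 1.5 times the main value. Of the recomputed folds of named genes 2 turned: Bcl2a1b to a mean log2 fold of -0.25 with plate SCGC1381 added, and Hist1h2ao, a histone gene with near-identical copies, to 0.78 in cells under 50 CPM of Mki67 and Top2a. The cause was not tested for any of these beyond the fewer genes, cells or plates each setting asks. Depth limits shares near 0: no read in any ZsGpos cell would allow a share of up to 1.395%, and in any WT cell 1.435%. No paired analysis was possible because no test was run, each group counting as 1 sample, and cells carry numbers in accession order only. The folds themselves were taken within plates.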

Other observations

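A pair of genes that bind or sense retinoids lay on the higher side and were picked out after their values were seen. Crabp2, a retinoic acid carrier, stood at 11.15, 58.34 and 27.39 CPM in ZsGpos and at 5.539, 11.55 and 4.896 CPM in WT on plates SCGC1373, SCGC1379 and SCGC1380. The receptor gene Rxra stood at 12.01, 17.54 and 14.91 CPM against 4.775, 3.758 and 5.326 CPM. In the bulk means Crabp2 was not higher, at 22.31 against 25.52 CPM.

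Secreted proteins outside the fixed lists were also called higher. Dhh, the desert hedgehog ligand, stood at 48.61, 87.98 and 100.08 CPM against 13.75, 39.74 and 34.63 CPM, yet its bulk means were 13.96 and 22.95 CPM. Smoc2, a matrix protein, stood at 130.27, 108.02 and 164.13 CPM against 24.51, 39.13 and 14.49 CPM, with bulk means of 68.17 and 11.84 CPM. Fgf9, a growth factor, stood at 6.046, 9.121 and 15.84 CPM against 1.655, 2.542 and 1.687 CPM, and 9.527 and 4.439 CPM in bulk.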
